A study of Homo sapiens with 4 samples.

Results

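The 49 genes described here encode the proteins that license, start and carry out DNA replication, together with the regulators of entry into S phase. They were picked by symbol, and all 49 were among the 16376 genes of the deposited table. Gene expression was measured by RNA-seq of poly(A)-selected RNA in the human colon cancer line HCT116, with 2 samples treated with hydrogen peroxide (H2O2, an oxidant that crosses membranes) and 2 samples labelled Control. Dose and exposure time are missing from the labels, which name no modification of the cells. Nor do they say that the 2 samples of a group were separate cultures; p-values therefore measure only how these samples vary, which may be technical. The comparison asks which of the genes differ in cells given H2O2 relative to Control cells.

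The table holds group means of normalized counts, which are read counts divided by a size factor for each library, and the authors' test of each gene. Each mean was solved for the pair of whole read counts behind it, which gave 1 solution for every gene. Over all listed genes the H2O2 libraries held 7365032 and 6858809 reads and the Control libraries 7309731 and 6892854. Replicate numbers are absent from the table, so within a group the libraries are named deeper and shallower by these totals. The table names its groups A and B; A was read as Control from the order in the table's name, and all directions depend on this reading. The epithelial markers EPCAM, CDH1, KRT8, KRT18, KRT19 and VIL1 had means of 175.5 to 3114 normalized counts in both groups. CDX1, PTPRC and PECAM1 were not among the listed genes. The muscle marker DES averaged 11.96 normalized counts with H2O2 and 11.98 in Control, and the fibroblast collagen gene COL1A1 averaged 553 with H2O2 and 753 in Control; their part in the results was not tested.

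Replication origins are bound by the origin recognition complex, to which CDC6 and CDT1 bring the MCM helicase; geminin (GMNN) holds CDT1 back so that each origin fires once per cycle. At the start of S phase the kinase CDK2 with cyclin E, and the kinase CDC7, turn the helicase on by recruiting CDC45 and the GINS complex. DNA polymerases then copy both strands, held on DNA by the sliding clamp PCNA. Many of these genes are transcribed in late G1 by E2F factors, of which E2F1 is the best known activator.

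H2O2-treated cells differed little from Control cells in these genes. PCNA, the sliding clamp, rose 1.34-fold in the authors' deposited table. POLE, the catalytic subunit of the leading-strand DNA polymerase epsilon, fell there to 0.654 times the Control mean. The other 47 genes did not pass an adjusted p under 0.05. POLE was the only member that differed by 1.5-fold or more, and 32 members lay between 1.1 and 1.3-fold. The 1 higher and 1 lower call are 2.04% of the members each, against 2.58% and 4.62% of all listed genes. limma on the recovered libraries called the same genes, against 1.52% of all listed genes higher and 2.58% lower. Without the deeper Control library it called 5 members higher and POLE lower, where 3.71% of all listed genes were higher and 4.81% lower. Without the shallower Control library it called 12 members higher and 2 lower, where 10.6% of all listed genes were higher and 11.6% lower. It called POLE alone without the shallower H2O2 library (1.29% and 1.84% of all listed genes). Without the deeper H2O2 library it called no member (0.635% and 1.1% of all listed genes), and 1 was higher and 1 lower at an unadjusted p under 0.05 (3.36% and 6.85%). Because these are bulk samples, a change in the share of cells in S phase and a change in RNA per cell cannot be told apart.

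The direction of the small differences was uneven. A log2 fold change above 0 was seen in 45 of 49 members (91.8%) in the authors' deposited table, against 50% of all listed genes, and the median was 0.18 for members and 0.00028 for all listed genes. Both H2O2 libraries lay above both Control libraries for 35 members (71.4%, against 26.3% of all listed genes), and both lay below for ORC2 and POLE (4.08%, against 25.6%). With p under 0.05 before adjustment in the authors' deposited table, 8 members were higher (16.3%, against 7.72% of all listed genes) and POLE alone was lower (2.04%, against 11.9%). The median gap between the libraries of one group, without sign, was 0.082 on the log2 scale for H2O2 and 0.090 for Control.

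**Figure D1:**
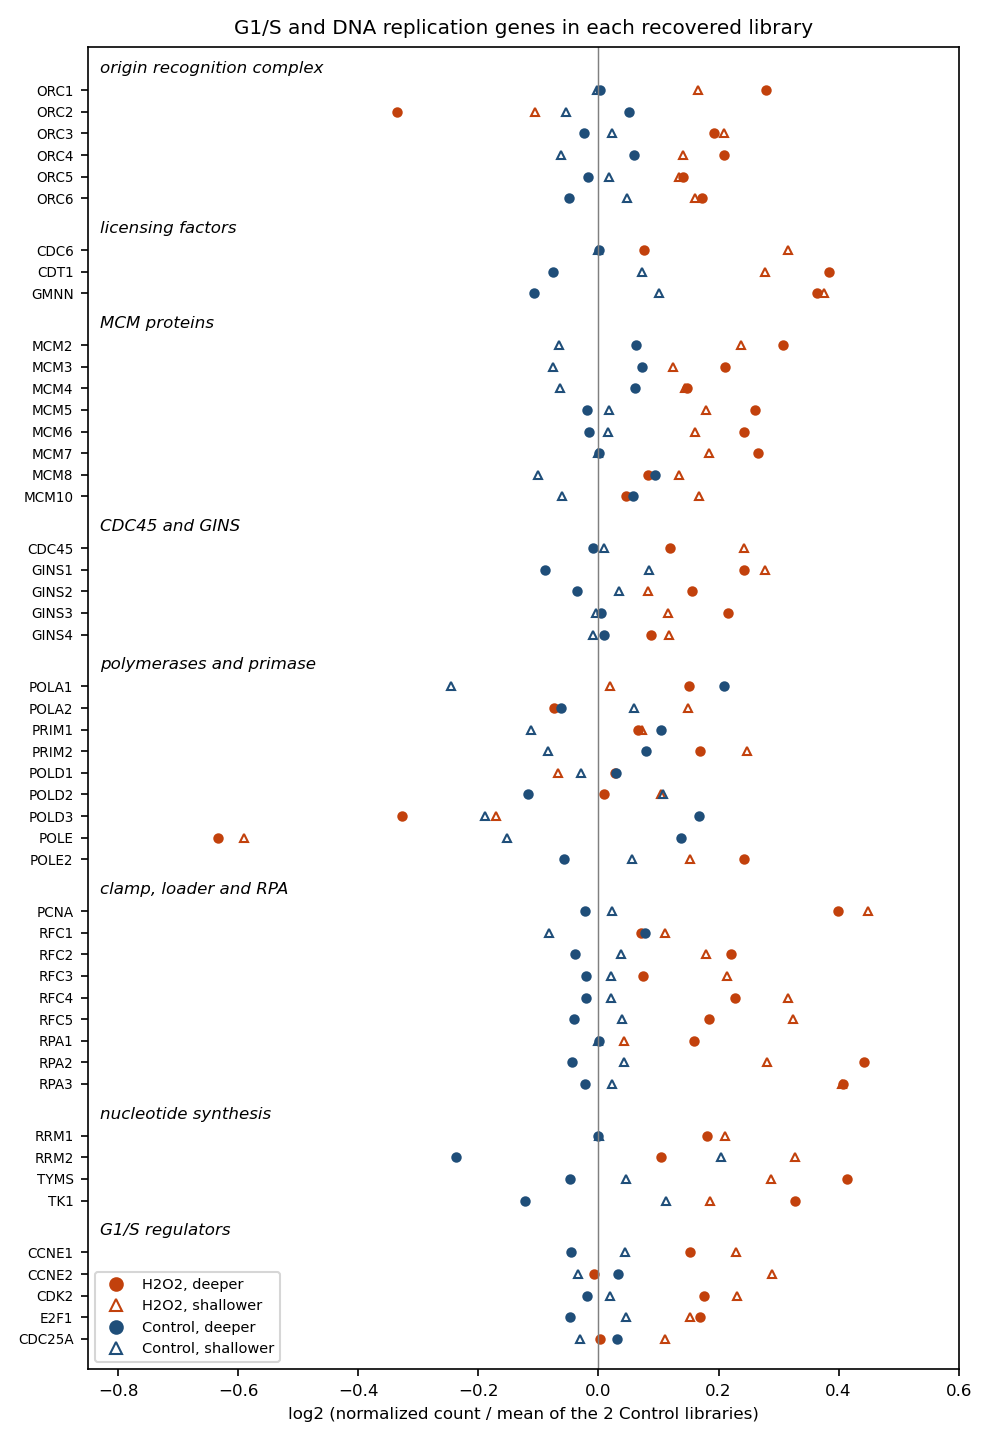
Normalized count of each of the 49 genes in each recovered library, as log2 of its ratio to the mean of the Control libraries, with genes down the page by role; filled circles are the deeper and open triangles the shallower library, H2O2 in orange and Control in blue. The orange symbols lie right of both blue symbols for 35 genes, and POLE stands apart on the left.

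PCNA had 1339.8 and 1387 normalized counts in the deeper and shallower H2O2 libraries, against 1001 and 1032 in the deeper and shallower Control libraries. The groups did not overlap, and the libraries within each group were close together. The difference was 0.42 ± 0.11 on the log2(normalized count + 1) scale (SE, 2 libraries in each group; limma, adjusted p = 0.0345), and the authors' deposited table gives an adjusted p of 0.0209. limma no longer called PCNA without the deeper or without the shallower H2O2 library (adjusted p = 0.326 and 0.347), although the difference stayed at 0.45 and 0.40.

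POLE had 1174 and 1209 normalized counts in the deeper and shallower H2O2 libraries, against 2003 and 1637 in the deeper and shallower Control libraries. Both H2O2 libraries were lower than both Control libraries, and the Control libraries differed more from each other than the H2O2 libraries did. The difference was -0.60 ± 0.12 on the log2 scale (SE, 2 libraries in each group; limma, adjusted p = 0.00896), with an adjusted p of 0.000126 in the authors' deposited table. Without the deeper H2O2 library limma did not call it (adjusted p = 0.110), and without the shallower it did (0.0476). The difference was -0.46 without the deeper and -0.75 without the shallower Control library.

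The promoters of PCNA, POLE and of 2 licensing genes near the threshold, CDT1 and GMNN, are shown because all 4 hold a sequence of the kind E2F factors bind, PCNA with a higher and POLE with a lower call. They are RefSeq windows of 250 bases before and 50 bases after the annotated start on build GRCh38.p14, read along the gene's strand, with the E2F-type motif in capitals. PCNA lies on the minus strand at chr20:5126573-5126872, POLE on the minus strand at chr12:132687293-132687592, CDT1 on the plus strand at chr16:88803539-88803838 and GMNN on the plus strand at chr6:24775163-24775462. PCNA and GMNN each have a second annotated start whose window holds no such motif.
PCNA: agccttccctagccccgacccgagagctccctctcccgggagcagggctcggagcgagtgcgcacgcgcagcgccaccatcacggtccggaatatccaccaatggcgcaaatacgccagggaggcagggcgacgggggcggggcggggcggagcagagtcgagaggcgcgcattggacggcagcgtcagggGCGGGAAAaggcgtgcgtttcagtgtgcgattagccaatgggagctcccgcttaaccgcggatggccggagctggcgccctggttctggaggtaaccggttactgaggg
POLE: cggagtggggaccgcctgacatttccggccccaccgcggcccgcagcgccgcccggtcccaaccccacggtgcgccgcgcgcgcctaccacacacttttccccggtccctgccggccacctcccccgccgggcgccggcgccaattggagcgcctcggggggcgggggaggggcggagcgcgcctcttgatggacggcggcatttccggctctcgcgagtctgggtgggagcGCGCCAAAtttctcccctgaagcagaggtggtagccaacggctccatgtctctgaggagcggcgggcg
CDT1: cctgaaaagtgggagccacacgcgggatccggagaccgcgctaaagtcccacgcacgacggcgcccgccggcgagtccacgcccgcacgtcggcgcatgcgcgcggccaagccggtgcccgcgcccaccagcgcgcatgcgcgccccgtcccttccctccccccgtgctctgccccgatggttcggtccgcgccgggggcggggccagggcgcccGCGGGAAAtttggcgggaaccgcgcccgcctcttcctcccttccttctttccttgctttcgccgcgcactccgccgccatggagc
GMNN: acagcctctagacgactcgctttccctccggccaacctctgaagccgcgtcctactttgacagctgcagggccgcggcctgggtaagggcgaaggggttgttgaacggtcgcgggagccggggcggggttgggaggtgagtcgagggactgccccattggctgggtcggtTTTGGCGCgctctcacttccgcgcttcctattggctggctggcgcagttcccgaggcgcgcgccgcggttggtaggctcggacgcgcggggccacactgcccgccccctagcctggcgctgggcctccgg

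The letters searched were TTTCCCGC, TTTGGCGC and TTTCGCGC on both strands, and matches may overlap, as they do in MCM2. Of 41 members with a promoter in the RefSeq table, 21 (51.2%) held at least 1 of them. The share was 3.30% of all 27305 genes with a promoter window there and 5.42% of the genes that are also in the deposited table. Among 62 other genes of the same pathway with a promoter there, from the list described below, 18 (29%) held at least 1. The motif was found in members of every role, among them MCM2, MCM3, MCM6, MCM7, CDC6, GINS1, GINS2, TYMS, POLE2, CDC25A and E2F1. The members with a motif had a median log2 fold change of 0.20 and the 20 without one a median of 0.18 in the authors' deposited table, which was not tested. The CCAAT box, a general promoter element, was found in 65.9% of members, 39.7% of all genes and 42.9% of those also in the deposited table. It was found in 51.6% of the 62 other pathway genes. The letters TTTGAA, the element of genes expressed in G2 and mitosis, were found in 1 member (RRM1, 2.44%). They were found in 18.2% of all genes, 13.6% of those also in the deposited table and 22.6% of the 62 other pathway genes. A match describes the letters of a window and does not show that a factor binds there.

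Among the origin recognition genes, which mark where replication can start, none passed the threshold. ORC1, the subunit that is itself cell cycle regulated, had 469 and 434 normalized counts with H2O2, against 387 and 386 in Control. ORC2 had 350.4 and 411 normalized counts with H2O2, against 458 and 426 in Control, and was the one subunit with both H2O2 libraries lower (log2 fold change -0.22 in the authors' deposited table, adjusted p = 0.410). The remaining subunits ORC3, ORC4, ORC5 and ORC6 had log2 fold changes of 0.14 to 0.20 there. In each of them both H2O2 libraries were above both Control libraries, against 26.3% of all listed genes. ORC3 was the least abundant of all members, at 94.6 and 95.7 normalized counts with H2O2, against 81.5 and 84.2 in Control.

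None of the 3 licensing factors passed, and GMNN and CDT1 lay near the threshold. GMNN, the inhibitor of CDT1, had 793 and 799 normalized counts with H2O2, against 571 and 660.0 in Control (log2 fold change 0.37 in the authors' deposited table, adjusted p = 0.0665). CDT1 had 1424 and 1322 normalized counts with H2O2, against 1035 and 1148 in Control (0.33 there, adjusted p = 0.0932). CDC6, the ATPase that loads the helicase with CDT1, had 1238 and 1460.4 with H2O2, against 1174 and 1173 in Control (0.20 there, adjusted p = 0.411). Its difference was 0.32 on the log2 scale without the deeper and 0.076 without the shallower H2O2 library. In all 3 genes both H2O2 libraries were above both Control libraries, against 26.3% of all listed genes. The proportion of CDT1 to its inhibitor overlapped between groups, with 1.797 and 1.655 CDT1 reads per GMNN read in the H2O2 libraries, against 1.812 and 1.739 in the Control libraries. Without the shallower Control library the difference was 0.41 for CDT1 and 0.48 for GMNN on the log2 scale. Without the deeper Control library it was 0.26 for CDT1 and 0.27 for GMNN.

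The 6 subunits of the MCM2 to MCM7 helicase, which unwinds DNA at the fork, stood higher with H2O2 by similar amounts. Their log2 fold changes ran from 0.15 for MCM4 to 0.27 for MCM2 in the authors' deposited table, the groups did not overlap for any of the 6 (26.3% of all listed genes had both H2O2 libraries above), and none passed. MCM2 had 2412 and 2297 normalized counts with H2O2, against 2035 and 1862 in Control (authors' adjusted p = 0.208). MCM7, the most abundant member by read count, had 5598 and 5289 with H2O2, against 4657 and 4655 in Control (authors' adjusted p = 0.386). MCM2 shares 32.0% of its exonic bases with genes on the opposite strand, so its counts are uncertain where the strand setting is not known. MCM8, a helicase with a role in recombination, and MCM10, which helps to start the fork, had overlapping groups, and the authors' deposited table gives 0.11 for each on the log2 scale.

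CDC45 and the GINS genes, the partners that turn the MCM ring into the active helicase, had no call, and in 5 of 5 both H2O2 libraries were above both Control libraries, against 26.3% of all listed genes. GINS1 had 545 and 559 normalized counts with H2O2, against 433 and 489 in Control (log2 fold change 0.26 in the authors' deposited table, adjusted p = 0.288). CDC45 had 549 and 598 with H2O2, against 502 and 509 in Control (0.18 there, adjusted p = 0.506). GINS2, GINS3 and GINS4 had log2 fold changes of 0.10 to 0.17 there.

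The polymerases and primase were the group with the lowest median, 0.058 on the log2 scale in the authors' deposited table. Of these 9 genes, 6 had overlapping H2O2 and Control libraries, against 7882 of all 16376 listed genes. POLE2, which binds POLE in polymerase epsilon, had 234 and 219 normalized counts with H2O2, against 189.8 and 205 in Control (log2 fold change 0.20 in the authors' deposited table, adjusted p = 0.543). The H2O2 libraries held 5.03 and 5.51 POLE reads per POLE2 read, against 10.6 and 7.98 in the Control libraries, a ratio within each library that no scaling enters. For POLE3, a histone-fold subunit outside the 49 genes, the H2O2 libraries held 1.02 and 0.999 POLE reads per read, against 2.03 and 1.66 in the Control libraries. Both ratios were lower in both H2O2 libraries than in both Control libraries. With 2 libraries per group an exact two-sided permutation test cannot go below p = 0.333. POLE has 7840 exonic bases, against 2223 in POLE2 and 2191 in POLE3. Listed genes of 6000 to 8000 bases had a median log2 fold change of -0.12, and those of 2000 to 3000 bases 0.096. These medians are over genes with a mean of at least 50 normalized counts. The part of length in the ratios was not tested. For POLD1, of 3527 bases, the H2O2 libraries held 1.303 and 1.435 POLE reads per read, against 2.223 and 1.892 in the Control libraries.

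Of polymerase delta, which copies the lagging strand, no subunit passed with all libraries. POLD1, its catalytic subunit, had 901 and 843 normalized counts with H2O2, against 901 and 865 in Control. POLD2, its regulatory subunit, had 834 and 890.4 with H2O2, against 764 and 893 in Control. POLD3 had 196 and 218 with H2O2, against 276 and 216 in Control (log2 fold change -0.25 in the authors' deposited table, adjusted p = 0.40), and its shallower Control library lay within the H2O2 values. The POLD3 difference was -0.059 without the deeper Control library and -0.41 without the shallower one. In polymerase alpha and primase, which lay the primers, POLA1 ranged from 472 to 517 with H2O2 and from 393 to 539 in Control, the widest gap between Control libraries among the members on the log2 scale. POLA2 had 426 and 497 normalized counts with H2O2, against 429 and 467 in Control. POLA2, PRIM1 and PRIM2 share 52.9%, 20.8% and 18.6% of their 75-base words with other genes' transcripts, so their counts are uncertain.

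The clamp, its loader and the single-strand binding proteins included 8 of 9 genes with both H2O2 libraries above both Control libraries, PCNA among them, against 26.3% of all listed genes. RFC4 and RFC5, small subunits of the replication factor C loader, stood at 0.27 and 0.26 on the log2 scale in the authors' deposited table (adjusted p = 0.223 and 0.244). RFC4 had 868 and 923 normalized counts with H2O2, against 730.4 and 751 in Control. RFC5 had 1448 and 1596 with H2O2, against 1238 and 1309.8 in Control. Their large subunit RFC1 overlapped between groups, at 1219 and 1254 with H2O2 and 1226 and 1096 in Control.

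RPA2 and RPA3, the middle and small subunits of replication protein A, which coats single-stranded DNA, had larger fold changes than RPA1. RPA2 had 454 and 406 normalized counts with H2O2, against 324 and 344 in Control (log2 fold change 0.36 in the authors' deposited table, adjusted p = 0.111). RPA3 had 107 and 107 with H2O2, against 79.6 and 82.1 in Control (0.41 there, adjusted p = 0.289). RPA3 had the highest log2 fold change of the 49 genes after PCNA but few reads, and its SE of 0.18 on the log2 scale was above the members' median of 0.12. RPA1 was at 0.10 on that scale in the authors' deposited table, and whether the subunits differ from each other was not tested.

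**Figure D2:**
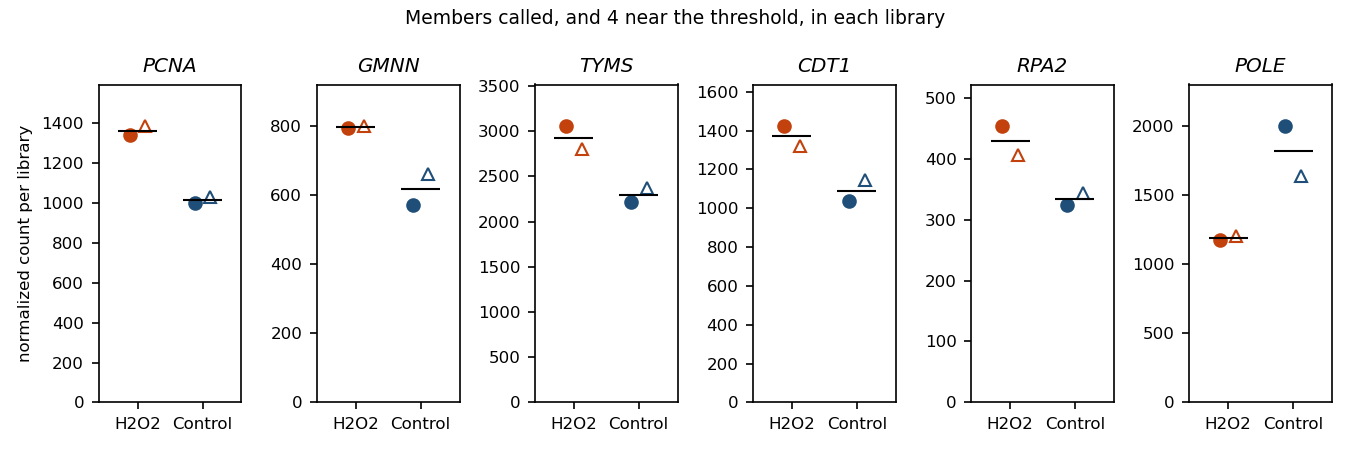
Normalized counts of 6 members in each library, on an axis from 0, with H2O2 left of Control; filled circles are the deeper and open triangles the shallower libraries and bars are the authors' group means. PCNA was called higher and POLE lower; GMNN, TYMS, CDT1 and RPA2 have groups that do not overlap and did not pass.

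The genes of deoxynucleotide synthesis were among the highest members. TYMS, thymidylate synthase, had 3056 and 2798 normalized counts with H2O2, against 2219 and 2366 in Control (log2 fold change 0.35 in the authors' deposited table, adjusted p = 0.0745). TYMS shares 64.6% of its exonic bases with genes on the opposite strand, ENOSF1 among them, so its counts are uncertain. TK1, thymidine kinase, had 5076 and 4599.6 with H2O2, against 3714 and 4374 in Control (0.26 there, adjusted p = 0.275). The TK1 difference was 0.14 on the log2 scale without the deeper Control library and 0.38 without the shallower one. RRM1, the large subunit of ribonucleotide reductase, had 2030.0 and 2072 with H2O2, against 1791 and 1791 in Control. RRM2, its S phase subunit, had 1885 and 2201 with H2O2, against 1488 and 2019 in Control, so its groups overlapped. The RRM2 value turned on which Control library was kept: the log2 difference was 0.45 without the shallower Control library and 0.013 without the deeper one. RRM2 also shares 28.0% of its 75-base words with other genes, pseudogenes among them.

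None of the 5 regulators of G1/S passed. CCNE1, cyclin E1, had 362 and 382 normalized counts with H2O2, against 315 and 336 in Control (log2 fold change 0.19 in the authors' deposited table, adjusted p = 0.511). CCNE2, cyclin E2, had 351 and 432 with H2O2, against 361 and 345 in Control, and its groups overlapped. CCNE2 shares 47.6% of its exonic bases with genes on the opposite strand, so its counts are uncertain. E2F1 had 516 and 511 with H2O2, against 445 and 474 in Control (0.16 there, adjusted p = 0.567). CDK2, the kinase of cyclin E, had 1559 and 1619.5 with H2O2, against 1361 and 1398 in Control. CDC25A, the phosphatase that activates CDK2 and is degraded after DNA damage, had 296 and 319 normalized counts with H2O2, against 302 and 289 in Control (0.058 there, adjusted p = 0.909). E2F1, CCNE1 and CDK2 had both H2O2 libraries above both Control libraries, against 26.3% of all listed genes, while the CCNE2 and CDC25A groups overlapped.

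Levels were compared between genes as authors' mean normalized count per 1000 exonic bases, with exonic lengths from GENCODE release 29. A length merges the exons of all transcripts annotated for a gene, so genes with many alternative exons may rank too low. TK1 was the highest, at 2801 with H2O2 and 2342 in Control, followed by TYMS at 1761 with H2O2 and 1379 in Control, and MCM7 at 1491 with H2O2 and 1275 in Control. ORC3 was the lowest, at 37.0 with H2O2 and 32.2 in Control. The 6 helicase subunits, which the protein complex holds in equal number, ranged from 493 (MCM6) to 1491 (MCM7) with H2O2 and from 428 to 1275 in Control, in the same order in both groups. The origin recognition subunits were lower, from 37.0 (ORC3) to 250.2 (ORC6) with H2O2 and from 32.2 to 223 in Control. POLE was at 152 per 1000 bases with H2O2 and 232 in Control, against 102 with H2O2 and 88.9 in Control for POLE2. The GINS genes lay close together at 101 to 169.9 with H2O2 and 90.4 to 152 in Control.

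**Figure D3:**
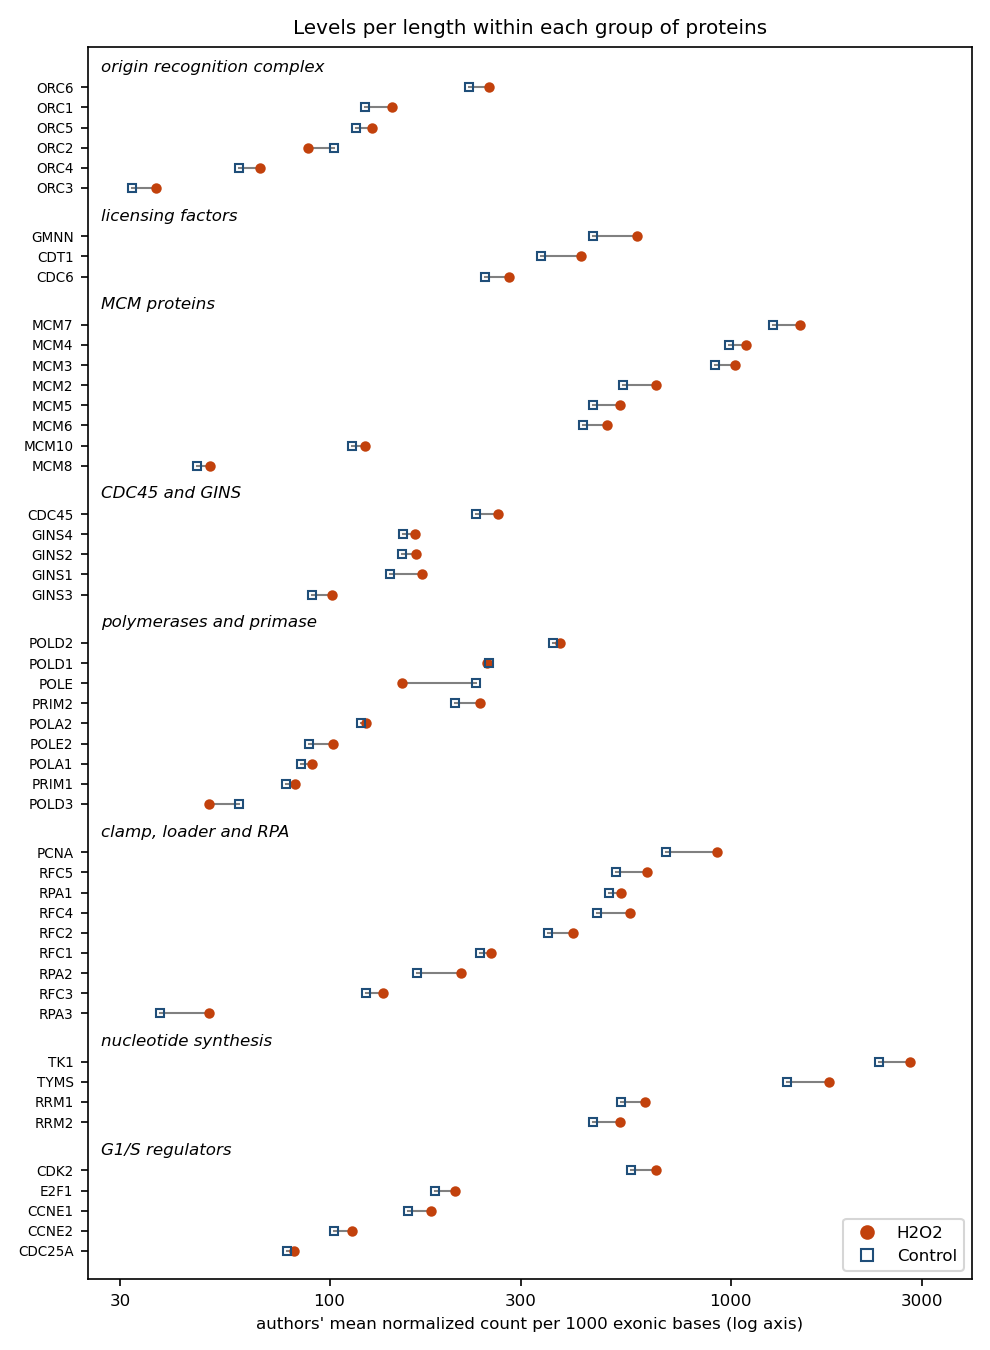
Authors' mean normalized count per 1000 exonic bases (log axis) for each gene in H2O2 (orange circles) and Control (open blue squares), ordered within each role by the Control level. TK1, TYMS and MCM7 are highest and ORC3 is lowest, and the lines between the groups are short beside the differences between genes.

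Exonic length moved with the differences across the whole table. Among listed genes with a mean of at least 50 normalized counts and a matched length, the median log2 fold change in the authors' deposited table was 0.15 for 1521 genes of 1000 to 2000 bases and -0.12 for 1434 genes of 6000 to 8000 bases. The shares called in those length ranges were 3.55% and 0.767% higher, and 2.83% and 7.18% lower. Among the 49 members log2 length and log2 fold change had a Pearson r of -0.55 and a Spearman rho of -0.52, and r was -0.47 without POLE; these are across genes, which are not independent replicates. PCNA has 1471 exonic bases, and 1012 other genes of 1177 to 1839 bases had a median log2 fold change of 0.15, with 94.9% of them below PCNA. POLE has 7840 bases, and 1716 other genes of 6272 to 9800 bases had a median of -0.15, with 2.04% of them below POLE.

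With a trend on length subtracted from each library, POLE still fell, with a log2 difference of -0.45 ± 0.087 (SE, 2 libraries in each group; limma, adjusted p = 0.00452). PCNA, at 0.28 ± 0.089, missed the threshold (SE, 2 libraries in each group; limma, adjusted p = 0.0748). POLE was then the only member called, against 2.28% of all genes with a length called higher and 3.56% lower. The members' median was then 0.14, against 0.0084 for all genes. In the range of 3000 to 4000 bases the uncorrected median log2 fold change was 0.21 for 14 members and 0.025 for all 1897 genes. In the range of 1000 to 2000 bases it was 0.27 for 8 members and 0.15 for all genes. From 2000 to 3000 bases it was 0.19 for 15 members and 0.096 for all genes. From 4000 to 6000 bases it was 0.10 for 9 members and -0.046 for all genes. From 6000 to 8000 bases it was 0.11 for 3 members and -0.12 for all genes. The length correction was chosen after the values were seen.

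**Figure D4:**
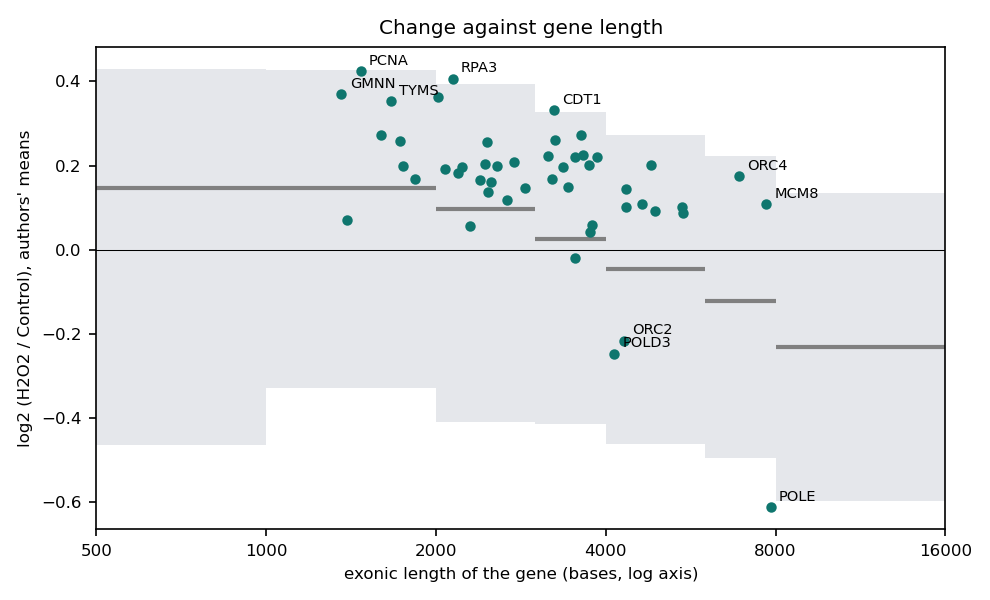
Log2 ratio of the authors' group means, H2O2 over Control, against exonic length (log axis) for the 49 genes (green points); grey lines are medians and grey bands the 5th to 95th percentiles of listed genes with a mean of at least 50 normalized counts in each length range, with the outer ranges drawn to the plot's edges. The medians fall with length, 43 members lie above the median of their range, and POLE lies below the band of its range. RPA3 and CDT1 lie just above the bands of their ranges, and PCNA lies within its band.

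Of 78 other genes of the same pathway that were looked up, 75 were listed, and 4 passed in the authors' deposited table. KIAA0101, the PCNA-associated factor, rose 1.36-fold and ASF1B, a histone chaperone that acts behind the fork, rose 1.29-fold (adjusted p = 0.0325 and 0.0489 there). FBXW7, the ubiquitin ligase subunit that targets cyclin E, fell to 0.664 and CHTF18, the large subunit of an alternative clamp loader, to 0.753 of the Control mean there (adjusted p = 0.00375 and 0.0316). These are 2.67% of the list in each direction, against 2.58% higher and 4.62% lower among all listed genes. limma called FBXW7 alone among them and none of the 75 higher, with 11 higher and 5 lower at an unadjusted p under 0.05, against 8.48% and 11.7% of all listed genes. The median of the 75 was 0.090 in the authors' deposited table, and both H2O2 libraries lay above both Control libraries for 31 of them (41.3%, against 26.3% of all listed genes) and below for 8 (10.7%, against 25.6%).

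FBXW7 had 206 and 256 normalized counts in the deeper and shallower H2O2 libraries, against 354 and 342 in Control (limma, -0.60 ± 0.14, SE, 2 libraries per group, adjusted p = 0.0274), and lost its call when the deeper H2O2 library was left out (adjusted p = 0.410). KIAA0101 had 575 and 528 with H2O2, against 434 and 379.8 in Control (limma, adjusted p = 0.0579), an uncertain count because 20.7% of its 75-base words occur in other genes. CHTF18 had 749 and 814 with H2O2, against 985 and 1090.1 in Control (limma, adjusted p = 0.0546). Its partner in that loader, DSCC1, stood on the other side, with 669 and 631 with H2O2, against 513 and 495 in Control (authors' adjusted p = 0.0813). ASF1B had 1391 and 1338 with H2O2, against 982 and 1126 in Control (limma, adjusted p = 0.0718).

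Around E2F, the dimer partner TFDP1 had 1059.9 and 1014 normalized counts with H2O2, against 850.2 and 854 in Control, and TFDP2 had 487 and 402 with H2O2, against 609.6 and 503 in Control (log2 fold changes 0.28 and -0.32 in the authors' deposited table, adjusted p = 0.188 and 0.155). The retinoblastoma family genes RB1, RBL1 and RBL2, with the other E2F genes and both partners, had a median log2 fold change of -0.0035 there over 12 genes. Of 9 genes of origin firing 3 were above 0, with a median of -0.079, and TICRR and DBF4B were lowest at -0.33 and -0.35. All 7 further genes grouped under nucleotide metabolism were above 0, from SAMHD1 at 0.050 to DCK at 0.36, with DUT at 0.34. Of 6 genes of Okazaki fragment maturation 5 were above 0, with FEN1, the flap nuclease, at 0.31. The S phase cyclin gene CCNA2 was at 0.28 and the base excision glycosylase gene UNG at 0.36. None of these genes passed in the authors' deposited table.

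The differences of CCND3, CDK6 and ATAD5, none of which passed, rested on 1 Control library. ATAD5, which unloads PCNA, had 228 and 236 normalized counts with H2O2, against 364 and 226 in Control. CDK6 had 1424 and 1559 with H2O2, against 2081 and 1489 in Control. CCND3, cyclin D3, had 562 and 594 with H2O2, against 388 and 559 in Control. In each the shallower Control library lay near the H2O2 libraries, and the deeper one apart.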

How the data were processed

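Poly(A)-selected RNA was sequenced from 2 H2O2-treated and 2 Control HCT116 samples. Per the submitters' processing notes, which give no roles, build hg19 and the tools STAR, HTSeq, DESeq, Trim Galore, FastQC and CASAVA 1.8 were used. Annotation, strand and dispersion were not stated in the sources used here. The deposited table of 16376 genes holds, per the file headers, base means: a signal that the authors averaged from size-factor normalized counts. Its fold column is the authors' ratio of means and its log2 column the log2 of that ratio, as deposited. Its p-value columns hold, per the file headers, the p and adjusted p of the authors' DESeq test; the Benjamini-Hochberg method gives back the adjusted column. The lowest listed mean was 5.46.

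Each mean was solved for 2 whole counts within 1e-09, a step checked on simulated tables. In all 16376 genes there was 1 solution per group, and size factors recomputed from these counts equalled the solved steps. Replicate libraries differed by more than sampling noise (chi-square per degree of freedom 2.32 for H2O2 and 6.83 for Control). limma 3.58.1 in R 4.3.3 was run over all genes on log2(normalized count + 1) with a mean-variance trend and Benjamini-Hochberg adjustment, and tested on simulated data. Both tests call an adjusted p under 0.05. Overlaps, shared 75-base words of the longest transcript and exonic lengths came from GENCODE release 29, on another build than the table, matched for 85.1% of listed genes. The length trend was a lowess with span 0.3.

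The members, gene lists, alternatives and rules were chosen with earlier results of these data known. Values in every library are given for members with an unadjusted p under 0.05 in either test, the 5 highest and 5 lowest log2 fold changes and 12 textbook E2F targets or regulated steps. Other pathway genes were named at an unadjusted p under 0.05 in the authors' test; SAMHD1, values of further members and the grouping by role were chosen after values were seen.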

Additional observations from a re-analysis of the deposited data

How the results depend on the processing

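All values here are limma's on the recovered libraries unless the authors' test is named. At an adjusted p under 0.1 the authors' test gave 4 members and 4 other pathway genes higher. The share of all listed genes at that threshold was not computed, so these counts have no baseline. limma with a pseudocount of 1, 0.5 or 5 called 0 other pathway genes higher (11 at an unadjusted p under 0.05) and 1 lower. With total counts in place of size factors it called 0 higher (10 at that unadjusted p). The authors' test called 2 higher and 2 lower. Of all listed genes 8.48% were higher at that unadjusted p with a pseudocount of 1. That share was not computed for the other pseudocounts or for total counts. The members' median log2 fold change of 0.18 became 0.16 with total counts and 0.14 after the length correction, added after the values were seen. That correction left 0 members called higher (13 at an unadjusted p under 0.05) and 0 other pathway genes called higher (17). For the unadjusted counts the share of all genes under this correction was not computed. PCNA lost its call with it, while KIAA0101 and ASF1B had no limma call without it either (adjusted p = 0.0579 and 0.0718). The correction left 3 other pathway genes called lower, FBXW7, CHTF18 and DBF4B (adjusted p = 0.0325, 0.0166 and 0.0464). Of all genes with a length, 2.28% were then called higher and 3.56% lower. Leaving out each library in turn gave 0 to 12 members called higher and 0 to 2 lower, with a median of 0.17 to 0.20, and 0 to 13 other pathway genes higher and 0 to 8 lower, with a median of 0.037 to 0.16. The highest counts came without the shallower Control library and the zeros without an H2O2 library. Such a fit assumes that the lone library varies like the other group. Without 1 library, 22 of 49 members moved by over 1.5 times and 6 reversed, as did ATAD5 and CDK6 among the 18 other pathway genes named; none of these 8 had passed with all libraries. Leaving out each library gave -0.0068 (without the shallower H2O2) to 0.29 for CCNE2, -0.65 to 0.038 (without the deeper Control) for ATAD5 and -0.48 to 0.00052 (without the deeper Control) for CDK6. For POLA2 the range was -0.073 to 0.15, with -0.073 without the shallower H2O2 and -0.022 without the deeper Control library, and for POLD1 -0.068 to 0.028, with 0.028 and 0.0096. POLA1 ranged from -0.12 to 0.33 and PRIM1 from -0.034 to 0.18, both lowest without the shallower Control, and POLD2 from -0.051 (without the deeper Control) to 0.17. CDK6 was at 0.0090 after the length correction. The causes were not tested. No paired analysis was possible because the table ties no value to a replicate number. With 2 libraries per group the members' SE, 0.12 at the median on the log2 scale, limits which differences can pass.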
